A study of Mus musculus with 48 samples.

Results

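The mitochondrial ribosomal protein genes were taken by symbol: every protein-coding row of the deposited tables whose symbol begins with Mrpl or Mrps followed by a number. This gave 78 of 49585 genes, on 17 chromosomes. By their known place in the mammalian particle, 51 encode proteins of the large subunit and 26 proteins of the small subunit, and Mrps36 carries the name but encodes a subunit of the 2-oxoglutarate dehydrogenase complex. RNA was measured in 48 libraries of whole mouse kidney, in 12 groups of 4. The groups were wild-type mice (WT in the labels) treated with D-alanine and collected at CT0, CT4, CT8, CT12, CT16 or CT20, and WT mice given vehicle and collected at the same 6 circadian times. D-alanine is the enantiomer of the common amino acid L-alanine. The labels name no strain, age, dose or route. According to the series text the kidneys came from different mice and the experiment was repeated. The values lie in 2 tables of 24 libraries, with 2 libraries of each group in each, and it is an inference that the tables are the repeats. Libraries 1 and 2 of a group are in the first table and libraries 3 and 4 in the second.

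The mitochondrial ribosome sits in the organelle's matrix and translates the few mRNAs copied from mitochondrial DNA, all of which encode subunits of the respiratory chain or of ATP synthase. Its proteins are encoded in the nucleus, made in the cytosol and imported, whereas its rRNAs are copied from mitochondrial DNA, so that the particle is assembled from the products of separate genomes. Many of its proteins have counterparts in bacterial ribosomes and others occur only in mitochondria. The cells of the renal proximal tubule are rich in mitochondria and rely on respiration to drive reabsorption.

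Promoters are shown for 6 members, since daily rhythm and treatment were compared and regulators of mitochondrial genes and of the clock bind known short motifs. Mrpl2, Mrps5, Mrps10 and Mrps25 had the smallest p for a daily rhythm, and Mrpl12 was the large-subunit member with the highest level. Mrpl36 was picked because the stretch shown held 2 kinds of searched motif, the most of any matched member, so its matches follow from that choice. Each line gives the 150 bases before the RefSeq start site in the GRCm38.p6 build, 5′ to 3′ on the gene's strand, with matches to the searched motifs in capitals. They lie at chr17:46646079-46646228 on the plus strand for Mrpl2, chr2:127587276-127587425 on the plus strand for Mrps5, chr17:47369047-47369196 on the plus strand for Mrps10, chr6:92184024-92184173 on the minus strand for Mrps25, chr13:73330859-73331008 on the plus strand for Mrpl36 and chr11:120484487-120484636 on the plus strand for Mrpl12. The RefSeq start site lies 204 bases from the deposited gene start for Mrps5 and 310 bases from it for Mrps10, and at most 24 bases from it for the other 4.
Mrpl2: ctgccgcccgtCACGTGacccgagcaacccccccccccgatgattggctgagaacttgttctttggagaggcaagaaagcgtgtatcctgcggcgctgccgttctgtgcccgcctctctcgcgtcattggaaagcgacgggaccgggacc
Mrps5: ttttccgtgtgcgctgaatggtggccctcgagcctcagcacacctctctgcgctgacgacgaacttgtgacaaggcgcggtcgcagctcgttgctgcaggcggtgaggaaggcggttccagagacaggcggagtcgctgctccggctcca
Mrps10: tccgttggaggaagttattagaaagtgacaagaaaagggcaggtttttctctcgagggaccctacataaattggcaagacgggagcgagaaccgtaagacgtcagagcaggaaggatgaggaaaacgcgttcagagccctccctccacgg
Mrps25: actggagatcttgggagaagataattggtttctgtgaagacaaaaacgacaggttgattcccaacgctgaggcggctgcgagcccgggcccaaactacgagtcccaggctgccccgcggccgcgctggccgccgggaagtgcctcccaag
Mrpl36: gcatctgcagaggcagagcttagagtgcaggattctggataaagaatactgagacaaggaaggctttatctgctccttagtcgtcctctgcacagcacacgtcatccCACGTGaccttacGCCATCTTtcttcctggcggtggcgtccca
Mrpl12: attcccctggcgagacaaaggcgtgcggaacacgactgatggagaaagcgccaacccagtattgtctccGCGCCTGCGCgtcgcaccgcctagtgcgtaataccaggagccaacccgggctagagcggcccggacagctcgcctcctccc

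The capitals mark an E-box in Mrpl2 at position -139 from the start site, a YY1 motif on the minus strand at -30 and an E-box at -43 in Mrpl36, and an NRF1 motif at -81 in Mrpl12. The promoters of Mrps5, Mrps10 and Mrps25 hold none of the searched letters in the stretch shown. Over windows from 250 bases before to 50 bases after the start, on both strands, 69 of the 78 members could be matched to a RefSeq promoter. The NRF1 motif was in 13 of the 69, or 18.8%, against 10.3% of 9856 genes tested below. The ETS motif (CCGGAAGT), which the GABP factor binds, was in 15.9% of the members and 8.29% of the tested genes, and the YY1 motif (AAGATGGC) in 17.4% of the members and 4.75% of the tested genes. The clock motifs were in few: the E-box (CACGTG) in 7.25% of the members and 10.2% of the tested genes, the D-box (TTATGTAA) in 0 of the 69 members and 0.568% of the tested genes, and the REV-ERB/ROR element (TAGGTCA) in 1.45% of the members and 2.03% of the tested genes. A base could count for more than 1 motif, and a match describes the letters only.

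Depth was 7626150 to 14403199 fragments per library. Libraries of a group correlated at 0.945 to 0.987 when in the same table and at 0.901 to 0.971 when in different ones. Mitochondrially encoded genes took 37.4% ± 4.33 of all FPKM with D-alanine and 41.4% ± 3.38 with vehicle in the first table, and 17.0% ± 1.36 with D-alanine and 19.9% ± 1.95 with vehicle in the second (SD, n = 12 each). FPKM (fragments scaled to exon length and library total) shares 1 total among all genes, so this share moves every other value, and results are given below within tables or with the table as a term. The kidney's defining markers were present: the 6 proximal tubule markers summed to 1611 to 3797 FPKM over D-alanine libraries and 1929 to 3589 FPKM over vehicle libraries.

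The members spanned a wide range of abundance that was much the same in both treatments. The highest was Mrps21, a small-subunit protein with a bacterial counterpart, at 155 ± 23.1 FPKM with D-alanine and 164 ± 28.5 with vehicle (SD over 24 libraries each, here and in the next sentences, with the difference between tables included). Next were Mrpl12, the counterpart of the bacterial stalk protein L7/L12, at 129 ± 25 with D-alanine and 127 ± 25.3 with vehicle, and Mrpl42 at 124 ± 17.9 with D-alanine and 123 ± 20.8 with vehicle. Mrpl54 stood at 97.9 ± 14.2 with D-alanine and 100.5 ± 12.9 with vehicle, and Mrpl34 at 91.3 ± 19.0 with D-alanine and 88.9 ± 18.7 with vehicle. The lowest measured members were Mrpl19, at 3.69 ± 0.658 with D-alanine and 3.56 ± 0.611 with vehicle, Mrpl15, at 3.74 ± 0.685 with D-alanine and 3.65 ± 0.637 with vehicle, Mrps10, at 3.86 ± 0.654 with D-alanine and 3.84 ± 0.812 with vehicle, Mrps22, at 4.28 ± 1.20 with D-alanine and 4.18 ± 1.11 with vehicle, and Mrpl47, at 4.43 ± 0.677 with D-alanine and 4.24 ± 0.761 with vehicle. From Mrps21 to Mrpl19 the level per summed exon length differed 46.1-fold in vehicle kidneys. The median member was at 22.7 FPKM with D-alanine and 21.9 with vehicle, against a vehicle median of 4.55 over all 14922 genes tested. Large-subunit members had a median of 24.3 FPKM in vehicle (the 50 genes above 0) and small-subunit members 14.9 FPKM (26 genes).

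Length touches this order. The 20 members with the lowest vehicle level had a median summed exon length of 6533 bases, against 1432 bases for the 20 highest, and for 20 members the summed exons of all annotated transcripts were more than 2 times as long as the principal transcript. With the principal length in place of the summed one, 7 members moved by over 20 places; Mrpl33, for example, moved from place 72 to place 22 among the 78. The highest and lowest measured members, Mrpl42 and Mrpl19, then differed 175-fold. Both orders began with Mrps21, Mrpl12 and Mrpl42 in the first 3 places and ended with Mrpl19 as the lowest measured member.

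**Figure D1:**
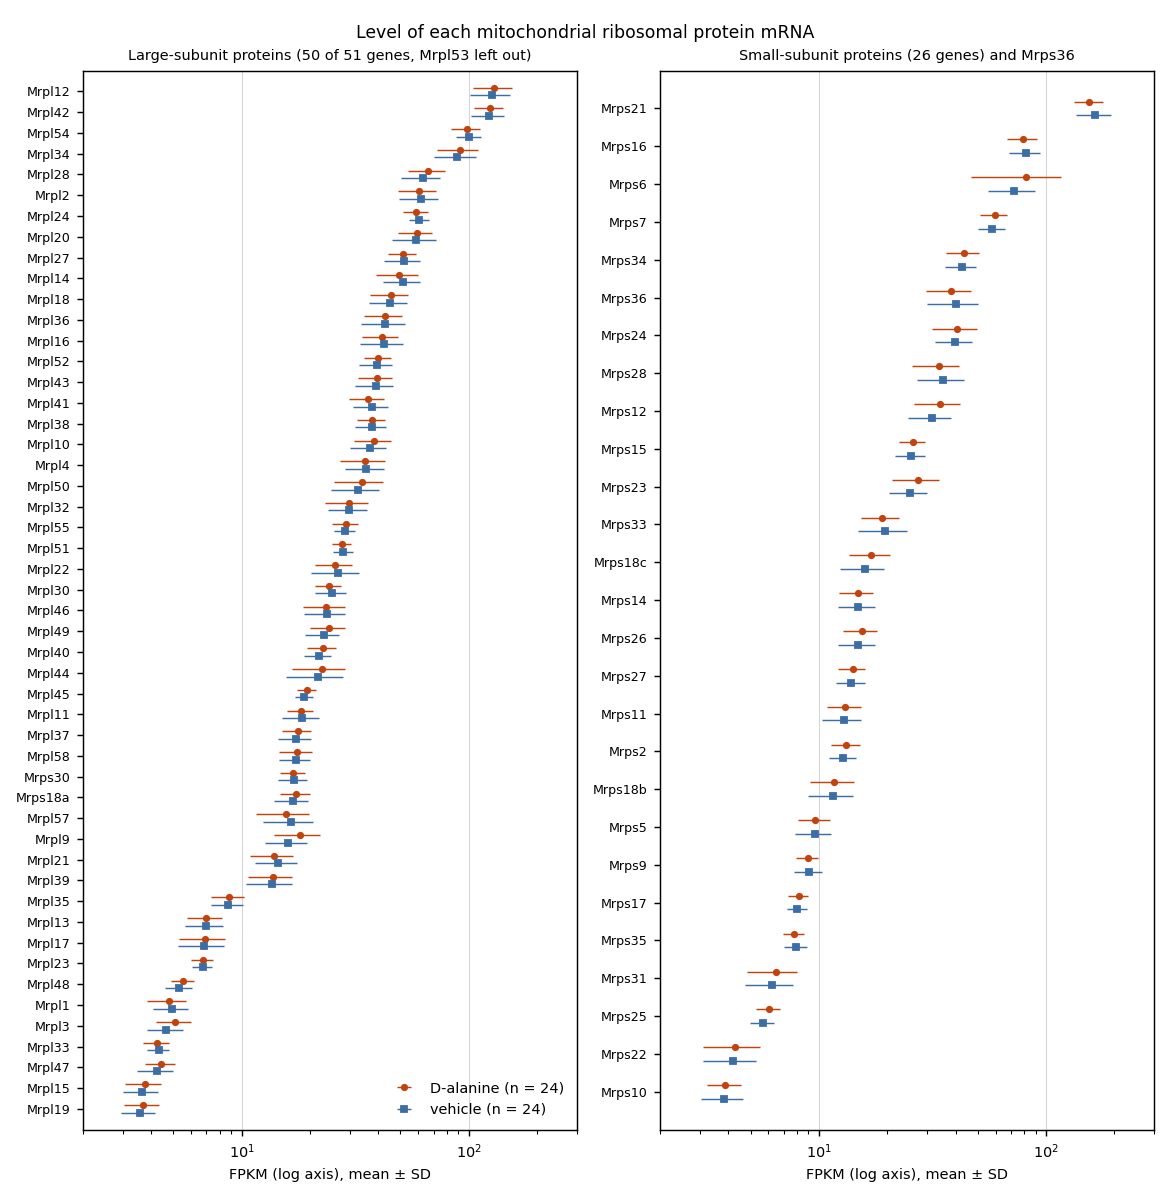
Mean FPKM (log axis) of the measured members in D-alanine (circles) and vehicle (squares) libraries, with bars of 1 SD over 24 libraries each. Members run from the highest to the lowest vehicle level, from 164 FPKM for Mrps21 to 3.56 FPKM for Mrpl19, and the bars of the treatments overlap for every member. Mrps18a and Mrps30 stand with the large subunit, where their proteins lie.

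Members with special roles lay within that range. The paralogs of bacterial S18 were at 17.4 ± 2.63 FPKM with D-alanine and 16.8 ± 2.88 with vehicle for Mrps18a, the large-subunit form, at 11.7 ± 2.58 with D-alanine and 11.6 ± 2.58 with vehicle for Mrps18b, and at 17.0 ± 3.46 with D-alanine and 15.9 ± 3.53 with vehicle for Mrps18c. Mrps12, at the decoding centre, was at 34.0 ± 7.88 with D-alanine and 31.4 ± 6.77 with vehicle. Mrpl11, at the stalk base where translation GTPases bind, was at 18.2 ± 2.38 with D-alanine and 18.5 ± 3.43 with vehicle, and Mrpl10, which carries the Mrpl12 copies, at 38.2 ± 7.09 with D-alanine and 36.6 ± 6.67 with vehicle. Mutations of Mrpl3, Mrpl44, Mrps22 and Mrps34 cause mitochondrial disease in humans. Mrpl3 was at 5.09 ± 0.872 with D-alanine and 4.67 ± 0.837 with vehicle, Mrpl44 at 22.6 ± 6.01 with D-alanine and 21.8 ± 6.15 with vehicle, and Mrps34 at 43.4 ± 7.19 with D-alanine and 42.5 ± 6.58 with vehicle. Mrpl41 was at 35.9 ± 6.32 with D-alanine and 37.5 ± 6.58 with vehicle, and Mrps30, a large-subunit protein in spite of its name, at 16.9 ± 2.12 with D-alanine and 17.0 ± 2.55 with vehicle. No member's treatments stood apart by more than their SD over 24 libraries. That SD includes the differences between tables and times, so this comparison cannot decide whether treatment changed a member. Mrpl45, which anchors the particle to the inner membrane, was at 19.4 ± 1.77 with D-alanine and 18.9 ± 1.75 with vehicle. Mrps36, which belongs to the 2-oxoglutarate dehydrogenase complex, was at 38.2 ± 8.62 with D-alanine and 39.98 ± 10.1 with vehicle.

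Mrpl53 was the only member that failed the filter on low values (at least 4 libraries with an FPKM of 1 or more). It was listed at 0 in 47 libraries and at 0.112 FPKM in 1 library, from a D-alanine kidney at CT20. It lies at chr6:83109040-83109939 on the plus strand (GRCm38). Of its 790 exon bases, 695 lie in the exons of the protein-coding gene Gm42688 on the same strand, or 88.0%. Gm42688 itself was at 1.06 ± 0.380 FPKM with D-alanine and 0.935 ± 0.197 with vehicle (SD, n = 24 each). Whether fragments of Mrpl53 were assigned to neither or to the other gene was not tested.

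Between replicates the members were steady. The SD within a group and table, on the log2(FPKM + 1) scale, had a median of 0.13 over the measured members and 0.20 over all genes tested, and was highest for Mrps6 at 0.50, followed by Mrpl9 at 0.21. Levels differed more between the tables: in vehicle the second table stood 1.35-fold above the first for the median member, against 1.06-fold for the median gene, and 73 of 77 members were higher in it. The tables were normalised separately, and the share of mitochondrially encoded genes given above differs between them in the other direction.

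The question for treatment was whether D-alanine shifted this gene set as a whole. The summed FPKM of all members was 2147 ± 141 with D-alanine and 2087 ± 116 with vehicle in the first table, and 2707 ± 133 with D-alanine and 2741 ± 107 with vehicle in the second (SD, n = 12 each). Scaled to a total of 1000000 over genes outside mitochondrial DNA, the sum was 6833 ± 155 with D-alanine and 6883 ± 220 with vehicle in the first table, and 7150 ± 194 with D-alanine and 7168 ± 143 with vehicle in the second. On both of these scales the treatments differed by less than the SD between libraries. Scaled to a total of 1000000 over all genes, mitochondrially encoded ones included, the sum was 4277 ± 293 with D-alanine and 4032 ± 280 with vehicle in the first table, and 5938 ± 186 with D-alanine and 5741 ± 160 with vehicle in the second. On that scale the second table's difference exceeded both SDs, with libraries from 5592 to 6216 with D-alanine and from 5488 to 5931 with vehicle, which overlap. The direction of the difference thus turned with the scaling in both tables, and the share of mitochondrially encoded genes, given above, was lower with D-alanine in both.

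**Figure D2:**
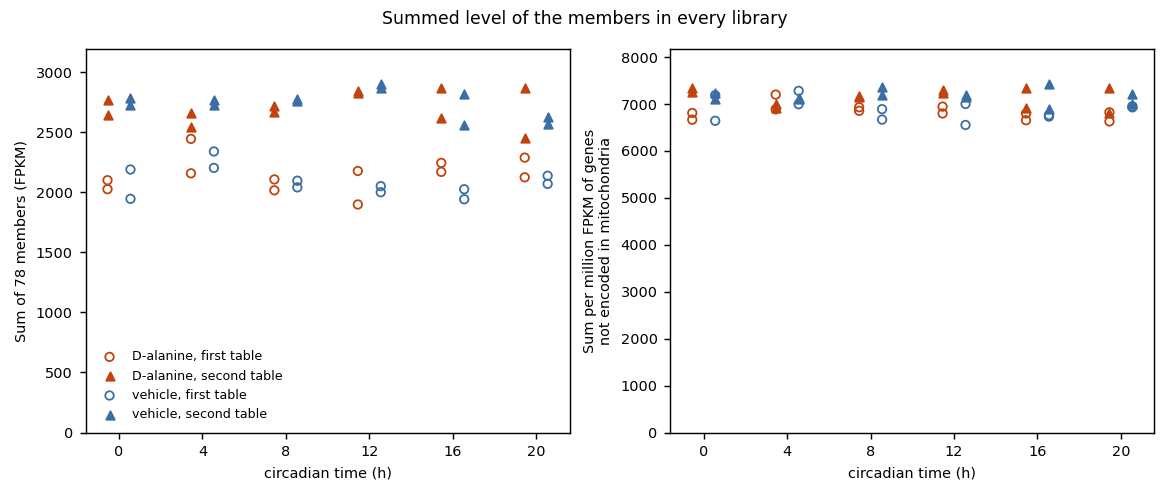
Summed level of the 78 members in each of the 48 libraries by circadian time, as FPKM on the left and scaled to a total of 1000000 over genes not encoded in mitochondria on the right. D-alanine is orange and vehicle blue, circles are the first table and triangles the second. The tables separate on the left (2147 and 2087 against 2707 and 2741 on average), and the treatments overlap on both sides.

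Gene by gene, limma on log2(FPKM + 1), adjusted by Benjamini-Hochberg over 14922 genes, called 0 of the 77 measured members for the mean treatment effect, D-alanine minus vehicle. Of all genes tested, 1.74% were called, 237 higher and 22 lower. At an unadjusted p under 0.05 there were 5 members, against 20.5% of all genes, and voom on recovered fragments also called 0. The median change of the members was 0.01, against 0.06 for all genes, and 48 members lay above 0, against 76.3% of all genes. The sign of the members' median depends on the scaling: it was 0.07 after rescaling to TPM, -0.0027 after rescaling without mitochondrially encoded genes, -0.05 after quantile normalization and -0.06 after median centring. Relative to the median of all genes under the same scaling, the members' median lay lower by a similar amount in each, with a difference of -0.04 as deposited and of -0.04 to -0.05 under those 4 scalings. This distance depends on the genes compared: without the filter on low values, with 30193 genes tested, it was -0.0018. By table the median was 0.04 in the first, with 62 of 77 members (80.5%) above 0, against 0.06 and 74.1% for all genes. In the second it was -0.01, with 35 of 77 members (45.5%) above 0, against 0.05 and 70.6% for all genes.

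The member with the smallest p was Mrpl9, a large-subunit protein with a bacterial counterpart. Its lowest, median and highest values were 11.0, 18.4 and 24.9 FPKM over the 24 D-alanine libraries, and 9.83, 15.3 and 20.97 FPKM over the 24 vehicle libraries. The treatments overlap over most of their range. Its change was 0.15 ± 0.05 (SE), with an adjusted p of 0.113 in limma with Benjamini-Hochberg adjustment; it was 0.16 in the first table and 0.14 in the second, and in 10 of 12 pairs of time and table the mean was higher with D-alanine. The other 4 members under an unadjusted p of 0.05 were Mrps23 (0.11 ± 0.05), Mrpl3 (0.10 ± 0.05), Mrps25 (0.08 ± 0.03) and Mrpl49 (0.08 ± 0.03), with limma adjusted p of 0.179 to 0.190. The 95% intervals of the 77 changes reached from -0.19 at the lowest to 0.36 at the highest, and the widest upper reach was that of Mrps6. Typically an interval extended 0.08 to either side.

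Rescaling to TPM, which raised the median of all genes to 0.11, brought 10 members past the threshold in limma with Benjamini-Hochberg adjustment, all higher: Mrpl3, Mrpl9, Mrpl10, Mrpl28, Mrpl48, Mrpl49, Mrps12, Mrps18c, Mrps23 and Mrps25. It called 14.2% of the 17453 genes tested there. The changes of these 10 ran from 0.10 for Mrpl48 to 0.21 for Mrpl9 on that scale, so that relative to the median gene they were small.

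**Figure D3:**
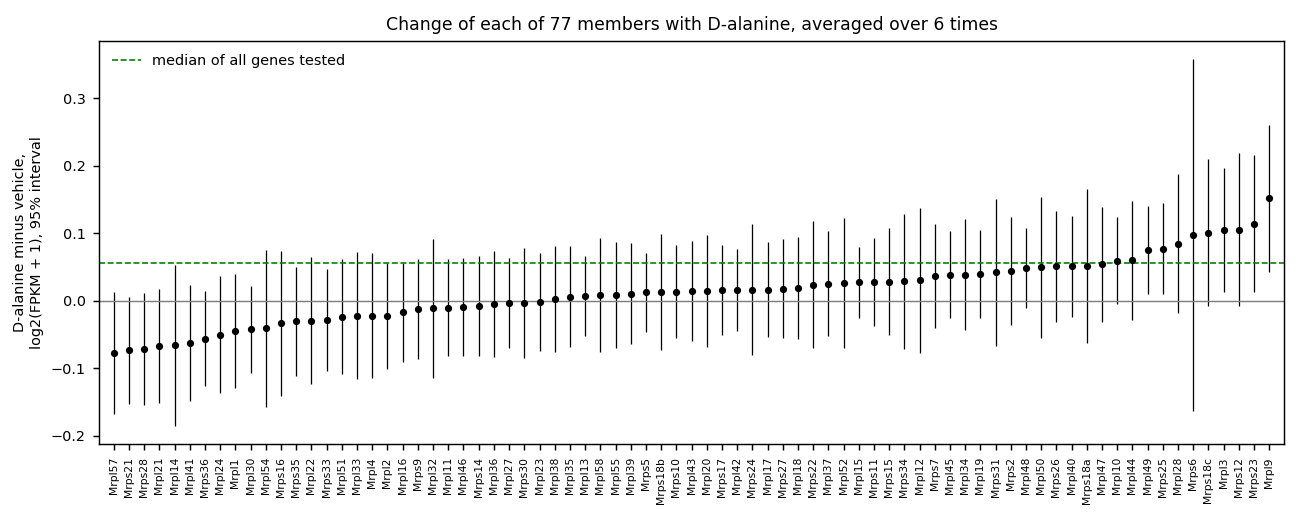
Change of each measured member with D-alanine, averaged over the 6 times, as the difference of log2(FPKM + 1) from vehicle with its 95% interval, sorted by size. The dashed line is the median of all 14922 genes tested, 0.06. Changes run from -0.08 for Mrpl57 to 0.15 for Mrpl9, and 0 members passed the threshold.

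At single times, each with 4 D-alanine against 4 vehicle libraries, limma with Benjamini-Hochberg adjustment called 0 of 77 members at CT0, where 1.14% of all genes were called, and 0 at CT4, CT8, CT12, CT16 and CT20, where 0% were called. Members at an unadjusted p under 0.05 numbered 8 at CT0, against 22% of all genes, 4 at CT8, against 14.8%, and 1 at CT12, against 2.27%. They numbered 0 at CT4, against 2.55% of all genes, 0 at CT16, against 4.74%, and 0 at CT20, against 2.57%.

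CT0 came nearest to the threshold. Mrpl9 had 15.3 and 24.9 FPKM in D-alanine libraries of the first table and 22.7 and 22.1 in those of the second, against 14.7 and 10.7 in vehicle libraries of the first table and 20.97 and 15.7 in those of the second. Within each table both D-alanine libraries lay above both vehicle libraries, and across tables the groups overlap. Its change was 0.44 ± 0.13, with a limma adjusted p of 0.0698. Mrps23, a small-subunit protein found only in mitochondria, had 23.8 and 39.5 FPKM in D-alanine libraries of the first table and 36.9 and 36.2 in those of the second, against 20.4 and 19.7 in vehicle libraries of the first table and 30.3 and 32.4 in those of the second. Here too the groups were apart within each table, with a change of 0.40 ± 0.12 and a limma adjusted p of 0.0732. Mrpl9 and Mrps23 were named for their small p at CT0, so this separation follows in part from that choice. Mrps18b followed at 0.29 ± 0.10 and Mrpl41 at -0.25 ± 0.10, with limma adjusted p of 0.107 and 0.157. Leaving out the D-alanine CT0 library numbered 1 or 4 brought 2 members past the threshold, and leaving out the vehicle CT0 library numbered 1 brought 1.

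At the other times the smallest p belonged to Mrpl57 (-0.17), Mrpl49 (0.12), Mrpl32 (-0.19) and Mrps18b (-0.15) at CT4, and to Mrpl3 (0.29), Mrpl30 (-0.18), Mrpl57 (-0.25) and Mrps12 (0.28) at CT8. At CT12 they were Mrpl21 (-0.26), Mrps2 (0.19), Mrps36 (-0.14) and Mrpl55 (0.15), at CT16 Mrpl36 (0.19), Mrpl42 (0.15), Mrpl35 (0.18) and Mrpl48 (0.13), and at CT20 Mrpl23 (0.18), Mrps18c (0.26), Mrpl52 (0.22) and Mrps10 (0.14). None of these passed in limma with Benjamini-Hochberg adjustment, and the smallest adjusted p among them was 0.281, at CT8.

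The members' median differed in sign between times. It was -0.03 at CT0 with 31 of 77 members above 0, against a median of 0.12 and 69.5% above 0 for all genes, -0.04 at CT4 with 25 above 0 (48.7% of all genes), -0.02 at CT8 with 29 above 0 (71.9%), 0.00077 at CT12 with 39 above 0 (60.4%), 0.08 at CT16 with 70 above 0 (62.5%) and 0.05 at CT20 with 60 above 0 (63.3%). The distance to the median of all genes held its sign under the 4 other scalings at CT0, CT4, CT8, CT12 and CT16: the members lay 0.14 below all genes at CT0 as deposited, with differences of -0.12 to -0.14 under the others, and 0.04 above at CT16, with 0.01 to 0.04 under the others. At CT20 that distance turned from 0.01 as deposited to -0.01 after quantile normalization. The median itself held its sign under all 4 other scalings at CT4 alone. TPM gave 0.11 at CT0 and 0.07 at CT8, with 68 and 63 of 77 members above 0. Quantile normalization gave -0.02 at CT12 and -0.02 at CT20, and rescaling without mitochondrially encoded genes gave -0.0050 at CT16 with 35 of 77 above 0 and -0.02 at CT20 with 24 of 77 above 0. At CT16 71 of 77 members lay above 0 in the first table and 46 of 77 in the second. Between the tables the distance to all genes turned at CT4, CT12 and CT16. At CT4 the members' median was 0.0013 against -0.061 for all genes in the first table, and -0.068 against 0.066 in the second. At CT12 it was 0.018 against 0 in the first and -0.011 against 0.051 in the second. At CT16 it was 0.145 against 0.054 in the first and 0.035 against 0.039 in the second.

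The test that the treatment effect was equal at all times called 0 of 77 members and 0% of genes overall (limma, Benjamini-Hochberg). No member had an unadjusted p under 0.05, against 3.53% of all genes. The smallest were 0.0894 for Mrps18b, 0.151 for Mrpl36, 0.181 for Mrpl42 and 0.202 for Mrps23, all with an adjusted p of 0.965. The treatment effect was called different between the tables for 0 of 77 members and 0% of all genes, with 4 members against 3.84% of all genes at an unadjusted p under 0.05, and 19 of 77 members against 47.4% of all genes with a difference above 0. The smallest p there were those of Mrpl11 (-0.15 ± 0.07), Mrpl20 (-0.17 ± 0.08), Mrps9 (-0.15 ± 0.07) and Mrps15 (-0.16 ± 0.07), as the change in the second table minus that in the first.

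The next question was whether members follow the time of day. With both treatments in 1 fit of a 24 h cosine and sine, 14 of 77 members (18.2%) were rhythmic in limma with Benjamini-Hochberg adjustment, against 26.5% of all genes tested; 22 had an unadjusted p under 0.05, against 39%. Of these, 6 were among the 50 measured large-subunit members (Mrpl2, Mrpl4, Mrpl11, Mrpl27, Mrpl39 and Mrpl41) and 8 among the 26 small-subunit members (Mrps2, Mrps5, Mrps9, Mrps10, Mrps12, Mrps23, Mrps25 and Mrps26). The swings were small, with a peak 1.13-fold to 1.24-fold above the trough, in FPKM + 1. The median amplitude, the fitted log2 distance from mean to peak, was 0.05 over the measured members and 0.10 over all genes. Without the filter on low values, 11 of 78 members (14.1%) were called rhythmic, against 11.8% of 30193 genes, so the order of the shares depends on the filter.

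Mrpl2, which forms part of the core of the large subunit, had the largest amplitude. Its lowest, median and highest values over the 8 libraries of a time were 42.4, 56.4 and 73.7 FPKM at CT0, 40.9, 65.9 and 74.5 at CT4, 51.8, 66.8 and 82.6 at CT8, 47.4, 68.3 and 80.0 at CT12, 41.5, 54.8 and 70.0 at CT16, and 46.4, 55.3 and 63.3 at CT20. The times overlap when the tables are pooled. Within the first table the 4 libraries of CT8 ran from 51.8 to 60.8 and those of CT0 from 42.4 to 51.4, without overlap, and within the second from 72.9 to 82.6 at CT8 and from 61.3 to 73.7 at CT0, with overlap. The fitted peak was CT8.94, with an amplitude of 0.15 ± 0.03 (SE) and a limma adjusted p of 5.59e-05.

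Mrps5, whose bacterial counterpart helps to keep decoding accurate, peaked at CT9.46 with an amplitude of 0.11 ± 0.02 and a limma adjusted p of 0.000202. Its median over 8 libraries was 8.64 FPKM at CT0, 9.42 at CT4, 11.0 at CT8, 10.1 at CT12, 9.46 at CT16 and 9.22 at CT20. In the first table it ran from 8.87 to 9.82 at CT8 and from 7.07 to 7.45 at CT0, and in the second from 12.2 to 12.7 at CT8 and from 9.83 to 11.4 at CT0, so that these times were apart in both tables. Mrps10, at the head of the small subunit, peaked at CT11.4 with an amplitude of 0.11 ± 0.02 and a limma adjusted p of 0.00149. It ran from 3.42 to 3.71 FPKM at CT8 and from 2.53 to 3.30 at CT0 in the first table, and from 4.248 to 5.11 at CT8 and from 3.68 to 4.250 at CT0 in the second, where the ranges just meet.

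Mrps25, a small-subunit protein found only in mitochondria, ran the other way. Its lowest, median and highest values were 5.76, 6.68 and 7.07 FPKM at CT0, 4.69, 5.61 and 6.42 at CT4, 4.06, 5.36 and 5.78 at CT8, 5.09, 5.31 and 6.32 at CT12, 4.85, 5.77 and 7.39 at CT16, and 5.35, 6.20 and 7.58 at CT20. All 8 libraries of CT8 lay at or below 5.78, and 7 of 8 libraries at CT0 lay above that level. The fitted peak was CT21.3, with an amplitude of 0.13 ± 0.02 and a limma adjusted p of 0.000174. Of its 6576 exon bases, 69.8% lie opposite exons of Nr2c2, which encodes a nuclear receptor, and without known strand the reads of the pair cannot be told apart. Nr2c2 itself had a limma adjusted p of 0.433 for a rhythm.

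The other 10 rhythmic members had amplitudes of 0.09 to 0.13. Mrps9 (CT8.61), Mrpl41 (CT8.40), Mrpl27 (CT9.57), Mrps26 (CT9.25), Mrpl11 (CT9.97) and Mrpl4 (CT9.82) peaked late in the subjective day, Mrpl39 peaked at CT5.11, and Mrps23 (CT23.7), Mrps2 (CT1.58) and Mrps12 (CT0.177) peaked near CT0. In all, 8 of the 14 peaked within 2 h of CT8, or 57.1%, against 21.2% of all rhythmic genes; 32.5% of the measured members had a fitted peak there whether called or not. Fits of each table alone put the peaks within 2 h of each other for 6 of the 14 and within 4 h for 10, with a largest gap of 5.46 h, for Mrps12.

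The calls differ in how firmly they rest on these libraries. Mrps25 and Mrps9 passed the threshold in all 59 alternative fits of a cosine and sine, and 10 of the 14 passed whichever of the 48 libraries was left out. The fit with times as a factor, which called 7 members and 20.8% of all genes, is not among the 59. Mrpl4 passed in only 24 of the 59 and Mrps12 in 27. The first table by itself called 4 members (5.19%), all among the 14, where 12.3% of all genes were called. The second called 13 (16.9%), where 20.7% of all genes were called, and 9 of these were among the 14.

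**Figure D4:**
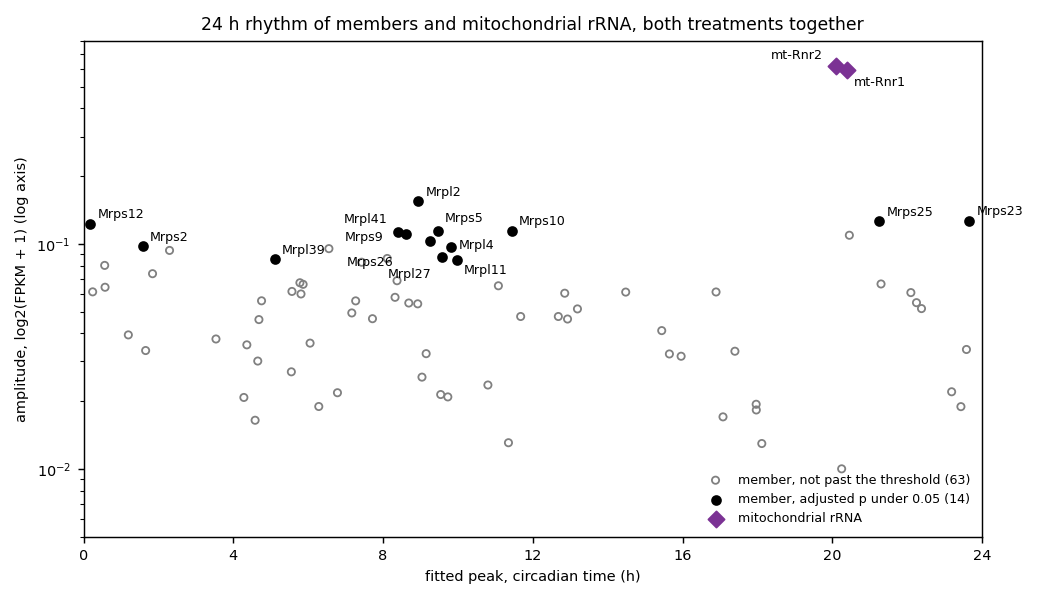
Fitted peak time and amplitude (log2 scale, log axis) of the measured members with both treatments together. Filled points passed the threshold (14 members) and open points did not (63), and the purple diamonds are the mitochondrial rRNAs. Of the 14, 8 lie within 2 h of CT8, while the rRNAs peak at CT20.4 and CT20.1 with amplitudes of 0.60 and 0.62, against at most 0.15 for a member.

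By treatment, 3 members were rhythmic with D-alanine (Mrps25, Mrpl2 and Mrps5), against 8.3% of all genes, and 5 with vehicle (Mrpl2, Mrps2, Mrps5, Mrps10 and Mrps25), against 9.77% of all genes, and the 3 were among the 5. At an unadjusted p under 0.05 there were 13 members with D-alanine, against 23.2% of all genes, and 15 with vehicle, against 24.3%. Mrpl2 had an amplitude of 0.15 ± 0.04 peaking at CT9.23 with D-alanine, and 0.16 ± 0.04 at CT8.68 with vehicle. Mrps25 had 0.13 ± 0.03 at CT20.9 with D-alanine, and 0.12 ± 0.03 at CT21.6 with vehicle. Mrps5 had 0.11 ± 0.03 at CT10.5 with D-alanine, and 0.12 ± 0.03 at CT8.48 with vehicle. Mrps2, a small-subunit protein with a bacterial counterpart, had 0.04 ± 0.04 at CT23.8 with D-alanine, and 0.16 ± 0.04 at CT2.05 with vehicle.

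The direct test of the difference in rhythm called 0 of 77 members and 0% of genes overall (limma, Benjamini-Hochberg), and no member had an unadjusted p under 0.05, against 2.37% of all genes. The smallest were 0.0539 for Mrpl36, 0.0653 for Mrpl35, 0.0792 for Mrps2 and 0.0889 for Mrpl57, and none came near the threshold after adjustment. Among the 14 rhythmic members the fitted peaks of the treatments lay within 2 h of each other for 6. They lay within 4 h for all 14. The peak was later with D-alanine for 10 of the 14, and the share among all rhythmic genes was not computed.

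The RNA of the same particle had far larger swings. The mitochondrial rRNAs, mt-Rnr1 of the small subunit and mt-Rnr2 of the large subunit, had swings of 2.28-fold and 2.35-fold, peaking at CT20.4 and CT20.1, with limma adjusted p of 1.9e-08 and 5.67e-08. The lowest, median and highest values of mt-Rnr1 over 8 libraries were 855, 1964 and 3365 FPKM at CT0, 562, 1097 and 2544 at CT4, 488, 865 and 1107 at CT8, 599, 961 and 1568 at CT12, 1006, 1679 and 2924 at CT16, and 739, 1750 and 2466 at CT20. Within the first table CT8 ran from 936 to 1107 and CT0 from 2202 to 3365, and within the second CT8 ran from 488 to 795 and CT0 from 855 to 1726, with no overlap in either. CT20, the time nearest the fitted peak, ran from 1716 to 2466 in the first table, apart from CT8. In the second it ran from 739 to 1785, which overlaps CT8. The rhythm was there in each treatment, with amplitudes for mt-Rnr1 of 0.54 ± 0.10 at CT20.3 with D-alanine and 0.65 ± 0.10 at CT20.4 with vehicle.

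None of the 13 mitochondrially encoded mRNAs, which are copied from the same DNA, passed the same rhythm test (limma adjusted p of at least 0.21). The trough of the rRNAs fell at the time when Mrpl2, Mrps5, Mrps9 and Mrpl41 were near their fitted peaks. By table, however, Mrps9 peaked at CT6.72 and CT10.5, and Mrpl41 at CT6.40 and CT10.8. Other rhythmic members peaked away from that trough, with Mrps25 at CT21.3, Mrps23 at CT23.7, Mrps12 at CT0.177 and Mrps2 at CT1.58. The library kit is described as an mRNA kit, and how fully it captures rRNA was not stated. For treatment, mt-Rnr1 changed by -0.08 ± 0.09 and mt-Rnr2 by -0.08 ± 0.09, neither past the threshold (limma adjusted p of 0.625 and 0.621).

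**Figure D5:**
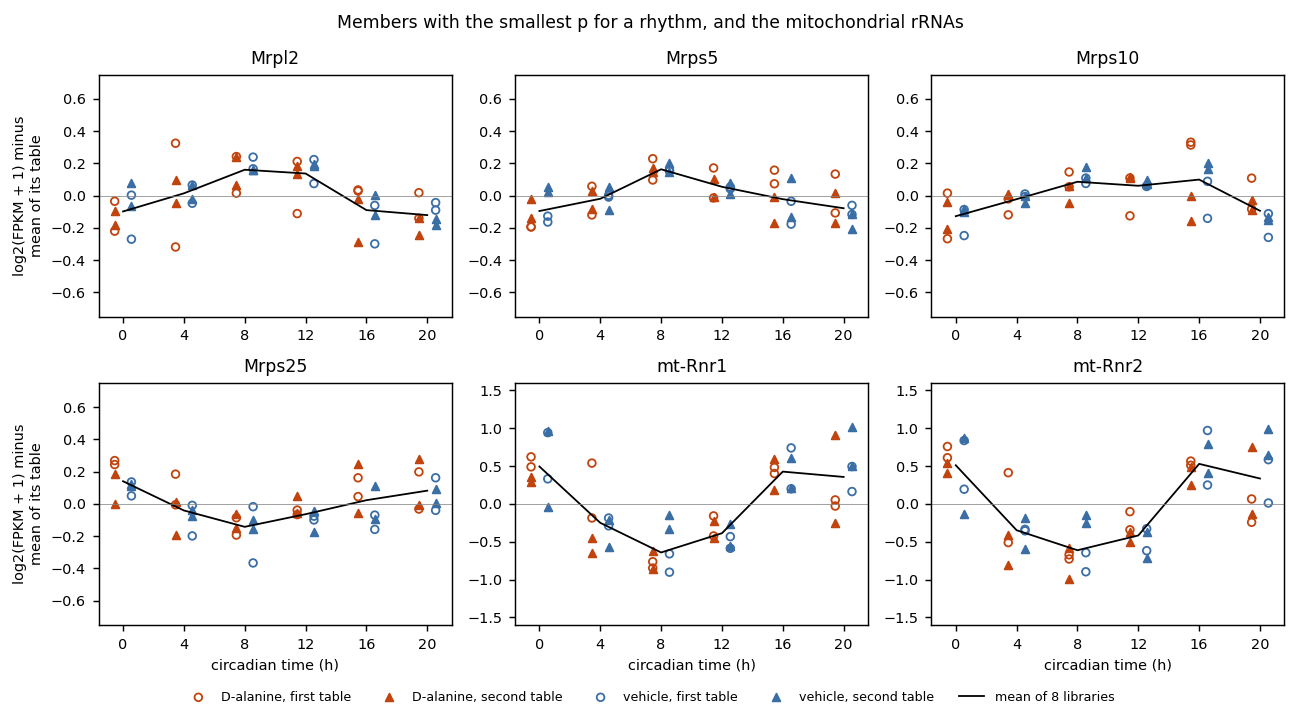
Values of 4 rhythmic members and the mitochondrial rRNAs in every library by circadian time, as log2(FPKM + 1) minus the mean of the library's table; the rRNA panels have a wider axis. D-alanine is orange and vehicle blue, circles are the first table, triangles the second, and the line joins the means of 8 libraries. The line of Mrpl2, Mrps5 and Mrps10 is higher at CT8 than at CT0, that of Mrps25 and the rRNAs is lowest at CT8, and the treatments overlap.

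Markers of other cell types moved with time as well. Of the cell type markers, 4 of 4 for red blood cells and 4 of 5 for fibroblasts and pericytes were rhythmic. So were 3 of 4 for podocytes and 3 of 7 for endothelium, where 26.5% of all genes tested were called. For proximal tubule it was 1 of 6, the phosphate transporter gene Slc34a1 (peak CT9.01, amplitude 0.22 ± 0.05, limma adjusted p 0.00389). Counts for the other marker lists are not given here. The summed red blood cell markers had a lowest, median and highest level of 82.9, 184 and 351 FPKM at CT8 and 157, 267 and 373 FPKM at CT0. The summed endothelial markers had 68.8, 93.0 and 209 FPKM at CT8 and 95.7, 129 and 458 FPKM at CT0, and the proximal tubule markers 2276, 2845 and 3589 FPKM at CT8 and 1611, 2509 and 3017 FPKM at CT0. Their part in the members' rhythm was not tested, and in whole kidney fewer cells of a type and less RNA per cell cannot be told apart. For treatment 0 markers passed the threshold. The 7 endothelial markers had a median change of 0.19 with all 7 above 0. The 3 adipose markers that passed the filter had a median change of 0.41 with all 3 above 0. Among all genes tested the median change was 0.06 and 76.3% lay above 0. Changes of the other marker lists are not given here.

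Genes that work with the ribosome gave the following counts, in lists chosen with earlier results of these data known. With limma and Benjamini-Hochberg adjustment 0 genes passed for treatment among 5 ribosomal proteins with other names, 21 assembly and rRNA modification factors, 9 translation factors, 7 factors of mitochondrial transcription and mRNA stability, and 9 nuclear regulators. Their median changes were 0.05, 0.03, 0.05, 0.04 and 0.05 in that order, beside 0.06 for all genes. The nearest to the threshold were Pprc1, a coactivator of nuclear genes for mitochondria, at 0.12 ± 0.04 (limma adjusted p 0.113), and Tfam, which packages and transcribes mitochondrial DNA, at 0.12 ± 0.04 (limma adjusted p 0.118).

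For rhythm, 26.5% of all genes tested passed. Of the 5 other-named ribosomal proteins 0 passed, Dap3 being the nearest (CT9.83, limma adjusted p 0.0631). Of the assembly list, 7 of 21 passed, among them Mterf3, which in mice restrains mitochondrial transcription (CT19.6, amplitude 0.18 ± 0.03), Mettl15, a methyltransferase of the small-subunit rRNA (CT5.81, 0.20 ± 0.04), the GTPase Gtpbp10 (CT5.96, 0.13 ± 0.03) and the RNA-binding Fastkd2 (CT1.31, 0.11 ± 0.03). The translation factors Tsfm (CT7.51, 0.12 ± 0.03) and Mrrf (CT2.69, 0.09 ± 0.02) passed, out of 9. In the other lists Tfam passed (CT8.07, 0.10 ± 0.03; 1 of 7), as did the transcription factors Myc (CT18.5, 0.35 ± 0.08) and Yy1 (CT23.6, 0.13 ± 0.04; together 2 of 9). Nrf1 did not pass (limma adjusted p 0.399), nor did Gabpa and Gabpb1 (0.053 and 0.0511). The peaks of the genes that passed were spread round the day.

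Mrps6 was the member that varied most between replicates. It ran from 34.1 to 202 FPKM over D-alanine libraries, with a median of 76.8, and from 49.2 to 122 over vehicle libraries, with a median of 68.8. The highest value came from the D-alanine CT0 library numbered 2, which at 30.9 FPKM also had the highest level of Slc5a3, the sodium/myo-inositol cotransporter of the inner medulla. Mrps6 and Slc5a3 share 159 exon bases on the same strand, 10.4% of the exon length of Mrps6. This pair was looked at after its values were seen, so the permutation p-values below do not allow for its choice among the members. The part of the shared bases in the correlation was not tested. Across the 24 libraries of the first table their log2 values correlated with r = 0.885 (permutation p = 1e-05, the smallest that 100000 resamples can give) and rho = 0.841, and without the 2 libraries farthest from the median r was 0.817. Across the second table r was 0.686 (permutation p = 0.00025, n = 24) and rho 0.689, and r was 0.558 without 2 libraries; the p-values adjusted over the 2 tables were 2e-05 and 0.00025. The r of the other 76 measured members with Slc5a3 ran from -0.747 to 0.751 with a median of -0.230 in the first table, and from -0.631 to 0.552 with a median of -0.161 in the second. The 5 inner medulla markers, of which Slc5a3 is one, summed to 24.2 to 739 FPKM over D-alanine libraries and to 29.0 to 401 FPKM over vehicle libraries.

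Many members lie close to other genes. Exon bases are shared with another gene for 33 of the 78, with a gene on the opposite strand for 28, and over more than 50% of the exon length for Mrpl53, Mrps25 and Mrps34, and fragments in shared bases cannot be assigned by these values. A protein-coding gene starts within 1000 bases on the opposite strand for 33 members, or 42.3%, against 16.1% of 12155 protein-coding genes tested. Mrpl46 (chr7:78775236-78783531, minus strand) and Mrps11 (chr7:78783119-78792989, plus strand) are such a pair of members, with starts 412 bases apart, and Mrpl36 (chr13:73331009-73332175) starts 29 bases from Ndufs6, which encodes a subunit of complex I.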

How the data were processed

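The authors deposited FPKM values per gene in 2 tables, normalized separately; GRCm38 (mm10) is the build that the submitters' processing notes name. Aligner, counter and strand: not given in the sources used here. Members, lists and tests were chosen with earlier results of these data known. Values were tested as log2(FPKM + 1), a scale that understates changes of low genes, with limma 3.58.1 in R 4.3.3 (trend, 12 groups plus a table term), in the 14922 genes that reached an FPKM of 1 in 4 or more of the 48 libraries. Calls had a Benjamini-Hochberg adjusted p under 0.05 over all of these. Rhythm used a cosine and sine of 24 h.

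Named members were those past the threshold, up to 6 a comparison by smallest p, or otherwise the 4 with the smallest p, the 5 highest and 5 lowest in vehicle, those failing the filter and a list chosen by role; companion lists gave up to 4 genes each. The promoters, the 14 rhythmic members and Mrps6 go beyond that rule and were chosen after their values were seen.

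Whole fragments were recovered with exon lengths of GENCODE M21 (a tolerance of 0.05 below 20 fragments): 99.8% to 100% of values of single-transcript genes came out whole, and 92.0% to 93.4% of all such values. A voom fit on those fragments was added after seeing the data. No 2 of the 72 replicate pairs held identical values or agreed within sampling noise. P-values measure the spread between these libraries. Sequences are from RefSeq. The fits were tested on simulated data.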

Additional observations from a re-analysis of the deposited data

Results flagged for a closer look

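In 3 of 120 groups (10 quantities in 12 groups of 4 libraries), 1 library lay farther off than Dixon's test at 95% allows. Chance flags about 1 in 20 groups drawn from a single distribution. Each group here pools libraries of both tables, whose levels differ, so that rate need not hold. In vehicle kidneys at CT8 the lowest library had 4.06 FPKM of Mrps25, with the next at 5.35 and the highest at 5.60. In vehicle kidneys at CT20 the highest library had 122 FPKM of Mrps6, with the next at 70.6 and the lowest at 62.4. In D-alanine kidneys at CT20 the lowest library had 739 FPKM of mt-Rnr1, with the next at 1659 and the highest at 1815. The values 739 and 1659 both came from the second table. Its 12 D-alanine libraries had a median of 749, but that median pools all 6 times of a rhythmic RNA. The vehicle libraries of CT20 in the second table had 1251 and 1785, so that 739 was low for its time.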

How the results depend on the processing

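No paired analysis was possible because the replicate numbers were given in accession order and pair nothing. For the mean effect of D-alanine, TPM called 10 members and 2479 genes in all, against 0 members and 259 genes as deposited, and voom called 0 members and 15 genes; at CT0 TPM called 6 members (7.79%), against 13.5% of all genes. The members' median change was 0.070 with TPM, -0.053 with quantile normalization and -0.056 with median centring. The count of rhythmic members, with the share of all genes called by the same fit, was 2 without the table term (14%), 4 in the first table alone (12.3%) and 7 with times as a factor (20.8%), against 14 (26.5%). With D-alanine alone it was 6 without mitochondrially encoded genes (7.82%), 5 with voom (8.54%), 0 without the table term (3.31%), 0 in the first table (1.56%), 1 in the second (4.86%) and 0 with times as a factor (9.7%), against 3 (8.3%). With vehicle alone it was 0 without the table term (4.01%), 0 in the first table (1.78%), 1 in the second (4.44%) and 0 with times as a factor (5.17%), against 5 (9.77%). The cause was not tested; the single tables hold fewer libraries.

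Leaving out 1 library at a time gave 11 to 17 rhythmic members, 1 to 5 with D-alanine alone (5 without D-alanine CT4 library 1 or D-alanine CT12 library 2, and 1 without D-alanine CT8 library 2), 4 to 7 with vehicle alone, 0 to 2 members at CT0 and 0 for the mean effect. For named genes 1116 values kept their direction and side of the threshold, 116 lost the call, 5 gained it and 0 reversed. Depth limits the lowest members, with a median of 200.5 fragments a library for the lowest one above the filter.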
